A study of Mus musculus with 6 samples.

Results

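The genes described here encode the subunits of the nuclear RNA polymerases (Polr1, Polr2 and Polr3 symbols), the TBP-associated factors (Taf symbols) and the general transcription factors (Gtf2 and Gtf3 symbols), and were chosen by symbol alone. The rule matched 63 of the 17097 genes measured, or 108 of the 28898 probe sets with 1 gene symbol out of 45141 on the array. They divide into 5 Pol I subunits, 11 Pol II subunits, 8 Pol III subunits, 20 TAFs and 19 GTFs. Subunits that several polymerases share are listed under the enzyme of their symbol. The study compared CD98hc KO fibroblasts with WT fibroblasts, both derived from mouse embryonic stem cells, with 3 arrays for each genotype. CD98hc, encoded by Slc3a2, is the heavy chain that brings several amino acid transporters to the cell surface, and the KO cells carry a null allele of it. Cells of both genotypes grew in the same high glucose DMEM with serum, non-essential amino acids, glutamine and β-mercaptoethanol. The lines were made elsewhere, and neither the number of clones behind them nor whether the arrays came from separate cultures is stated in the labels or methods. The p-values therefore measure only the spread between arrays, which may be technical.

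Pol I transcribes the large ribosomal RNA precursor, Pol II transcribes messenger RNA, and Pol III transcribes transfer RNA and other short RNAs. Each enzyme finds its promoters through its own factors. SL1, built from TBP and its own TAFs, serves Pol I. TFIID, built from TBP and another set of TAFs, starts Pol II assembly together with TFIIA, TFIIB, TFIIE, TFIIF and TFIIH, and TFIIIA and TFIIIC place TFIIIB for Pol III.

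The targeted gene did not follow the labels. Slc3a2 was 11.65, 11.57 and 11.54 on the KO-labelled arrays against 10.64, 10.67 and 10.51 on the WT-labelled arrays (log2 values of replicates 1, 3 and 5), so it was higher on the arrays labelled as lacking it (log2 difference 0.98, SE 0.0747, limma adjusted p = 0.00012). Whether its probe set lies inside the deleted part is not known here, and one outside it would check nothing. The arrays are therefore called KO-labelled and WT-labelled, and each direction rests on those labels. Of the pluripotency markers, 11 of 11 measured were higher on the KO-labelled arrays, with summed linear levels of 27300 to 29200 against 358 to 488 on the WT-labelled arrays. Of 12 fibroblast markers, 9 were lower and 1, Thy1, was higher, with sums of 2660 to 3720 on the KO-labelled and 21400 to 29100 on the WT-labelled arrays. All 6 epithelial markers were also higher (sums of 2900 to 4520 on KO-labelled and 175 to 198 on WT-labelled arrays), as were 2 of 4 endothelial and 2 of 3 germ cell markers, while 0 of 3 blood cell markers passed in either direction. Fibroblast is the study's name for both lines, and most pluripotency, epithelial and fibroblast markers listed here go against it on the KO-labelled arrays. These marker levels moved with every result below, and their part in the results was not tested. In such bulk RNA, fewer cells of a type and less RNA per cell cannot be told apart. Arrays correlated at 0.991 to 0.994 within labels and at 0.911 to 0.92 between labels. Both replicate 3 arrays were lower at all 9 hybridisation controls, by 1.16 on the log2 scale on average.

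To show the upstream sequence of genes that moved together, the 150 bases before the start of 5 members are printed here. Taf1a, Taf1b and Taf1d, the measured TAFs of SL1, were all higher, as were Gtf2e1 and Gtf2e2 of TFIIE, which are not printed. Polr3f and Polr3k were the polymerase subunits that were lower. Sequences are from RefSeq, build GRCm38.p6, and run 5′ to 3′. Capitals mark matches, on either strand, to 5 searched motifs: the TATA box TATAAA, the ETS core CCGGAA, the GC box GGGCGG, the CCAAT box CCAAT and the NRF1 core CGCATGCG.
Taf1a promoter, chr1:183388735-183388884, plus strand: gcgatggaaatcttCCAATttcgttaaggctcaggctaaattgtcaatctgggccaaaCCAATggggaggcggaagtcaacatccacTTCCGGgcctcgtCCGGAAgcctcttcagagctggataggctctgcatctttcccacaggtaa
Taf1b promoter, chr12:24498431-24498580, plus strand: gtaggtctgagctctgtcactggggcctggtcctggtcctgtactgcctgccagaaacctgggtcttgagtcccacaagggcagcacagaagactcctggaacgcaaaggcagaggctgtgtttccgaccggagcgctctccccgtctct
Taf1d promoter, chr9:15306064-15306213, plus strand: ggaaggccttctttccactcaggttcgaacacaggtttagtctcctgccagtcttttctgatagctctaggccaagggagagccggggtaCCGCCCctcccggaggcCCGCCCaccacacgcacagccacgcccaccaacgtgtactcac
Polr3f promoter, chr2:144527595-144527744, plus strand: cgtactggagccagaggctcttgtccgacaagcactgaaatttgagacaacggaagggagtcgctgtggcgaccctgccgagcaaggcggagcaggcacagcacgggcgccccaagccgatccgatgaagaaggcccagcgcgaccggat
Polr3k promoter, chr2:181864210-181864359, plus strand: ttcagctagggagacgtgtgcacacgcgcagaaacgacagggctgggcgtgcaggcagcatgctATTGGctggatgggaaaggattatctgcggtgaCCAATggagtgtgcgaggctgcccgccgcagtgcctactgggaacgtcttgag
In these stretches Taf1a held matches to the ETS core and the CCAAT box, Taf1d to the GC box and Polr3k to the CCAAT box. The stretches of Taf1b and Polr3f held no match, though the longer window of Taf1b, of the kind counted next, held 2 to the ETS core. Over 66 windows running from 250 bases before to 50 after the start, which cover 55 of the 63 members, 42.4% held the ETS core, against 14.9% of all 32851 windows. The GC box was in 62.1% of the members' windows and 35.7% of all windows. The NRF1 core was in 6.06% (4 windows, both overlapping windows of Taf1a among them) and 1.87%. TATAAA was in 13.6% of both. The CCAAT box was in 28.8% of the members' windows, against 37.4% of all windows. A match is a description of letters only.

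Of the 63 members, 29 were higher on the KO-labelled arrays (46%) and 4 were lower (6.35%) at an adjusted p under 0.05 in limma, and 30 did not pass. Over all genes 22.6% were higher and 19.2% lower. The median log2 difference, KO-labelled minus WT-labelled, was 0.30 over the members and 0.02 over all genes. The polymerase subunits alone had 15 higher and 2 lower of 24 and a median of 0.55. Over 2-fold, 7 members were higher, against 9.27% of all genes, and 1 was lower, against 10.1%. The 3 values of one label lay wholly above the 3 of the other at 32 members in the KO-labelled direction (28.1% of all genes) and at 6 in the WT-labelled direction (23.4% of all genes). When single probe sets were tested, 41 of 108 were higher and 6 were lower, against 20.1% and 19.4% of all probe sets. Without the replicate 3 arrays the counts were 22 higher and 1 lower, against 18.7% and 16.6% of all genes. Polr2e, Polr2j, Polr3e, Polr3f, Taf1d, Taf1a, Taf4b, Taf5l, Taf9, Taf11 and Gtf2ird1 no longer passed and Gtf2h4 newly did. With the replicate 3 arrays as a covariate 34 were higher and 5 lower, against 25.8% and 21.5% of all genes, and Polr2g, Gtf2h4, Polr3d, Taf5, Taf13 and Taf10 newly passed.

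**Figure D1:**
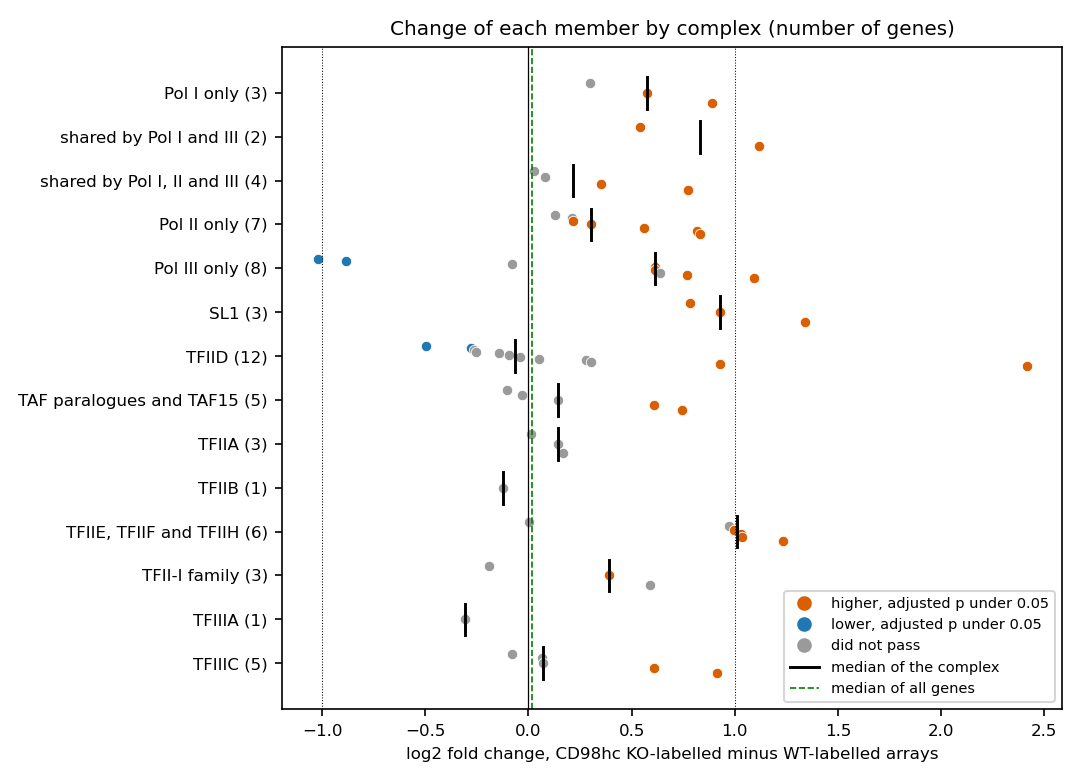
Log2 difference of each of the 63 members, KO-labelled minus WT-labelled arrays (n = 3 each), as a point coloured by whether it passed the test, with a black line at the median of each complex, the all-gene median dashed in green and dotted lines at a 2-fold change. Most polymerase subunits, the 3 SL1 TAFs and most TFIIE, TFIIF and TFIIH subunits lie right of 0, while the TFIID subunits lie on both sides.

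Of the 5 Pol I subunits 4 were higher and 0 were lower, beside 22.6% and 19.2% of all genes, and the median difference was 0.58. Polr1d, a small subunit that Pol I shares with Pol III, read 10.69, 9.89 and 10.17 on the KO-labelled arrays (replicates 1, 3 and 5, the order used for all array values) against 9.13, 8.92 and 9.35 on the WT-labelled arrays. The groups did not overlap, although KO-labelled array 1 lay well above the others. The log2 difference was 1.12 (SE 0.218, limma adjusted p = 0.0068). Its other probe set ran the opposite way, at −0.40, without passing the test (adjusted p = 0.058 over probe sets).

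Polr1b, the second largest Pol I subunit, was 9.46, 9.44 and 9.52 on the KO-labelled arrays against 8.93, 8.44 and 8.39 on the WT-labelled arrays. All KO-labelled values were higher and lay close together. It differed by 0.89 (SE 0.151, limma adjusted p = 0.0038). Polr1a, the catalytic subunit, was higher by 0.58 (SE 0.123, limma adjusted p = 0.01), and all 3 of its probe sets were positive. Polr1c, which joins Polr1d in both enzymes, was higher by 0.54 (SE 0.0755, limma adjusted p = 0.0016), while its brighter probe set gave 0.24 and did not pass (adjusted p = 0.21). Polr1e, a subunit that works in initiation and elongation, overlapped between labels at a difference of 0.30 (limma adjusted p = 0.13).

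All 11 Pol II subunits had a positive difference, as did 9120 of all 17097 genes. The 11 had a median of 0.30, and 7 of them passed the test, where 22.6% of all genes were higher. None of the 11 exceeded 2-fold. Polr2d, which forms the stalk with Polr2g, was 9.08, 9.39 and 9.01 on the KO-labelled arrays against 8.22, 8.47 and 8.28 on the WT-labelled arrays, with no overlap (log2 difference 0.83, SE 0.125, limma adjusted p = 0.0023). Polr2c, a subunit on which the enzyme assembles, was 11.17, 10.70 and 10.86 on the KO-labelled arrays against 10.13, 10.00 and 10.15 on the WT-labelled arrays. These too did not overlap (0.82, SE 0.129, limma adjusted p = 0.0027). Polr2h, which all 3 polymerases share, read 10.75, 10.49 and 10.65 on the KO-labelled arrays against 10.19, 9.65 and 9.71 on the WT-labelled arrays. It was higher by 0.77 (SE 0.158, limma adjusted p = 0.0083).

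The catalytic subunit Polr2a was higher by 0.56 (SE 0.114, limma adjusted p = 0.0079), and its partner Polr2b by 0.30 (SE 0.0601, limma adjusted p = 0.0072). Polr2e (0.35, limma adjusted p = 0.027) and Polr2j (0.22, limma adjusted p = 0.043) also passed. The dimmer probe sets of Polr2e gave 0.15 and −0.0009, neither passing. Polr2j did not pass without any one of the 6 arrays (adjusted p 0.062 to 0.13), nor did Polr2e without KO-labelled array 1 or 5 or WT-labelled array 3 or 5 (0.068 to 0.087). Polr2g, Polr2m, Polr2l and Polr2f did not pass, at 0.21, 0.13, 0.08 and 0.02. Of the 4 subunits common to all 3 enzymes that were analysed here, Polr2h and Polr2e passed and Polr2l and Polr2f did not.

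Of 8 Pol III subunits 4 were higher and 2 were lower, with a median of 0.61, where 22.6% of all genes were higher and 19.2% lower. Pol III was not tested against the other enzymes. The catalytic pair was higher. Polr3b, the second largest subunit, was 7.21, 7.21 and 7.46 on the KO-labelled arrays against 6.37, 5.93 and 6.30 on the WT-labelled arrays. The groups lay far apart (1.095, SE 0.14, limma adjusted p = 0.0011), and its second probe set was also higher, by 0.77. Polr3a, the largest subunit, was 9.49, 8.80 and 9.11 on the KO-labelled arrays against 8.47, 8.08 and 8.54 on the WT-labelled arrays, a gap smaller than the spread within each label. It was higher by 0.77 (SE 0.203, limma adjusted p = 0.023), and by 0.85 on a second probe set (adjusted p = 0.001 over probe sets). The first call was lost without KO-labelled array 1 or 5 or WT-labelled array 3 (adjusted p 0.052 to 0.071).

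Polr3e was higher by 0.62 (SE 0.137, limma adjusted p = 0.012) and Polr3gl by 0.61 (SE 0.193, limma adjusted p = 0.044). The dimmer probe set of Polr3e gave −0.05 and did not pass (adjusted p = 0.64 over probe sets). Polr3gl, one of a pair of alternative subunits, was 8.08, 7.55 and 8.18 on the KO-labelled arrays against 7.22, 7.16 and 7.58 on the WT-labelled arrays, so the groups overlapped although it passed, and without KO-labelled array 1 or 5 or WT-labelled array 1 or 3 it did not (adjusted p 0.12 to 0.13). Its alternative, Polr3g, was not analysed here. Polr3d gave 0.64 (limma adjusted p = 0.1) with overlapping values and −0.37 on its other probe set, and it passed with the replicate 3 arrays as a covariate (adjusted p = 0.015). Polr3c did not pass, at −0.08 (SE 0.113, limma adjusted p = 0.64).

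Polr3f, which belongs to the subcomplex that contacts TFIIIB, was 6.89, 6.90 and 6.97 on the KO-labelled arrays against 8.32, 8.11 and 7.39 on the WT-labelled arrays. Every KO-labelled value was lower, and WT-labelled array 5 was nearest to them. The log2 difference was −1.02 (SE 0.232, limma adjusted p = 0.013). All 5 of its probe sets were negative, between −1.02 and −0.03, and 2 passed. The brightest of them gave −0.38 and did not pass (adjusted p = 0.14 over probe sets). Polr3k, the subunit for transcript cleavage and termination, was 6.50, 6.90 and 6.47 on the KO-labelled arrays against 7.41, 7.80 and 7.31 on the WT-labelled arrays, again with no overlap. It differed by −0.88 (SE 0.171, limma adjusted p = 0.0065). Its 5 probe sets were also all negative, 2 passed, and the brightest gave −0.35 (adjusted p = 0.023 over probe sets).

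**Figure D2:**
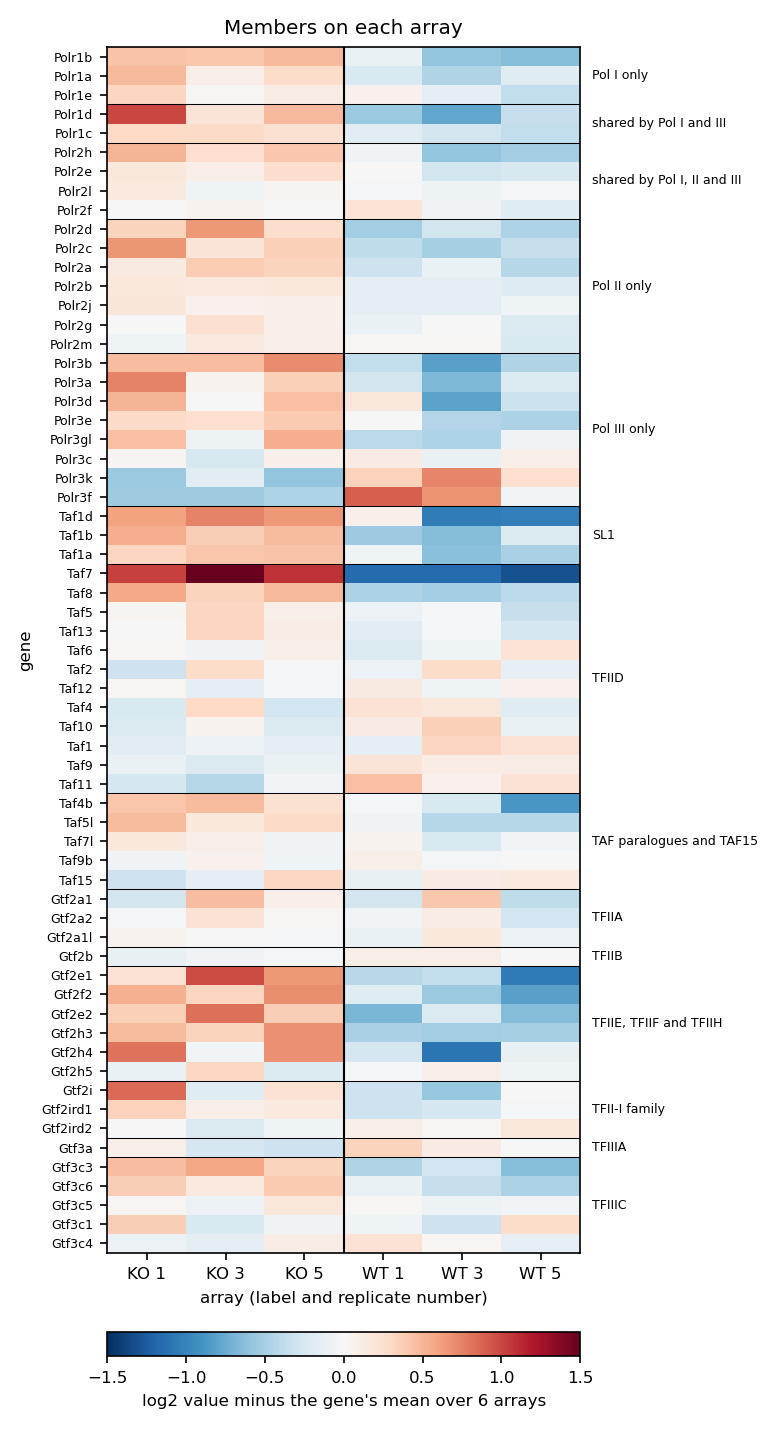
Log2 value of each member on each array minus the member's mean over the 6 arrays, KO-labelled arrays on the left and WT-labelled on the right, in rows by complex. The Pol I, Pol II and SL1 rows are mostly above 0 on all 3 KO-labelled arrays, and Polr3f and Polr3k show the opposite pattern.

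Among the 20 TAFs, 7 were higher and 2 lower, with a median of 0.10, beside 22.6% higher and 19.2% lower over all genes. The SL1 and TFIID members differed in their counts. All 3 measured SL1 TAFs passed as higher, with a median of 0.93. TFIID had 2 of 12 subunits higher and 2 lower (16.7% each), not far from the all-gene shares, with a median of −0.07. The difference between these complexes was not tested. Of the 5 remaining genes, paralogues of TFIID subunits and Taf15, 2 were higher.

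Taf1d, which SL1 needs to hold Pol I at ribosomal RNA genes, was 9.62, 9.76 and 9.67 on the KO-labelled arrays against 9.09, 7.96 and 7.98 on the WT-labelled arrays. The KO-labelled values lay close together and the WT-labelled array 1 stood nearest to them. The log2 difference was 1.34 (SE 0.303, limma adjusted p = 0.013), and all 7 of its probe sets were positive, between 0.71 and 1.34, with 5 of them passing. Taf1b, which stands in for TFIIB in the Pol I complex, was 9.21, 9.03 and 9.14 on the KO-labelled arrays against 8.11, 8.01 and 8.46 on the WT-labelled arrays. No values overlapped (0.93, SE 0.129, limma adjusted p = 0.0016). Taf1a read 7.79, 7.89 and 7.90 on the KO-labelled arrays against 7.41, 6.84 and 6.98 on the WT-labelled arrays. It too was higher on each KO-labelled array (0.78, SE 0.15, limma adjusted p = 0.0062). Taf1b and Taf1a each had 1 probe set.

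Taf7, a TFIID subunit that binds Taf1 and holds back its enzyme activity, was 6.61, 7.09 and 6.67 on the KO-labelled arrays against 4.43, 4.43 and 4.28 on the WT-labelled arrays. The WT-labelled values lay near 4.23, the median of 23 control probe sets for nonspecific signal, whose means ran from 3.28 to 8.32. The groups did not overlap. From 1 probe set, the log2 difference was 2.41 (SE 0.14, limma adjusted p = 4.1e-05). With the WT-labelled values near the nonspecific level, it can be read only as a lower limit for that probe set. Taf7 was too dim on average to be kept by the filter on dim genes. Its paralogue Taf7l, best known from germ cells and fat, read 4.14, 4.08 and 3.93 on the KO-labelled arrays against 4.03, 3.75 and 3.94 on the WT-labelled arrays, near the same control level on both. Taf8, which brings Taf10 into the nucleus, was 8.39, 8.16 and 8.30 on the KO-labelled arrays against 7.34, 7.31 and 7.41 on the WT-labelled arrays. The spread was small beside the gap (0.93, SE 0.0822, limma adjusted p = 0.00023), and both of its probe sets passed.

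The lower TAFs, Taf11 and Taf9, both have a histone fold. Taf11 was 8.04, 7.88 and 8.26 on the KO-labelled arrays against 8.76, 8.37 and 8.53 on the WT-labelled arrays, with a narrow gap (−0.49, SE 0.138, limma adjusted p = 0.029). Its partner Taf13 was positive at 0.28 and did not pass (limma adjusted p = 0.09), though it passed with the replicate 3 arrays as a covariate. Taf9, which TFIID shares with the SAGA coactivator, was 10.36, 10.25 and 10.37 on the KO-labelled arrays against 10.66, 10.58 and 10.58 on the WT-labelled arrays. The groups did not overlap, but the difference was small (−0.28, SE 0.069, limma adjusted p = 0.018). Taf11 kept its call only without WT-labelled array 3 or KO-labelled array 5 (adjusted p 0.065 to 0.079 without each other array), and Taf9 lost its call without KO-labelled array 3 or WT-labelled array 1 (0.051 and 0.061). The largest TFIID subunit, Taf1, did not pass, at −0.27 on the chosen probe set and −0.21 on the other. Taf4, Taf5, Taf6, Taf2, Taf12 and Taf10 did not pass either, between −0.25 and 0.30, although Taf5 and Taf10 did with that covariate. The chosen probe sets of Taf10 and Taf15 were dim, and their bright ones gave 0.08 and 0.06, neither passing.

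Taf4b, the gonadal paralogue of Taf4, was 7.80, 7.86 and 7.62 on the KO-labelled arrays against 7.37, 7.16 and 6.52 on the WT-labelled arrays. It was higher by 0.74 (SE 0.22, limma adjusted p = 0.035), and its 3 probe sets were all positive, with 1 passing. Without WT-labelled array 5, its lowest, it was higher by 0.49 and still passed, and it did not pass without any one KO-labelled array or WT-labelled array 3 (adjusted p 0.061 to 0.092). Germ cell markers were among those that were higher on these arrays, with summed levels of 162 to 362 on the KO-labelled and 72.3 to 84.1 on the WT-labelled arrays, and their part was not tested. Taf5l, the SAGA counterpart of Taf5, was higher by 0.61 (SE 0.135, limma adjusted p = 0.011).

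The 19 GTFs held 7 higher and 0 lower members, with a median of 0.17, beside 22.6% higher and 19.2% lower over all genes. Of 6 measured subunits of TFIIE, TFIIF and TFIIH 4 were higher, with a median of 1.01, and the other 3 higher GTFs were Gtf3c3, Gtf3c6 and Gtf2ird1. TFIIA (0 of 3) and TFIIB (0 of 1) had no call, and the difference between these factors was not tested. Gtf2e1, the large subunit of TFIIE, was 8.13, 8.90 and 8.57 on the KO-labelled arrays against 7.50, 7.55 and 6.86 on the WT-labelled arrays. The values did not overlap but spread widely within each label (1.23, SE 0.256, limma adjusted p = 0.009). Gtf2e2, the small subunit, was 10.21, 10.68 and 10.22 on the KO-labelled arrays against 9.18, 9.65 and 9.22 on the WT-labelled arrays. Replicate 3 was the highest of each label, and the difference was 1.03 (SE 0.181, limma adjusted p = 0.0044).

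Gtf2f2, the small subunit of TFIIF, which brings Pol II to the promoter, was 10.17, 9.96 and 10.34 on the KO-labelled arrays against 9.46, 9.08 and 8.83 on the WT-labelled arrays. All KO-labelled values were higher (1.04, SE 0.179, limma adjusted p = 0.0041). Gtf2h3, a core subunit of TFIIH, the factor that opens the promoter and also works in DNA repair, was 9.18, 9.04 and 9.39 on the KO-labelled arrays against 8.22, 8.19 and 8.21 on the WT-labelled arrays. The WT-labelled values were nearly equal, and the difference of 0.995 (SE 0.1, limma adjusted p = 0.00039) had the smallest p among the GTFs. Gtf2h4, which anchors a helicase of TFIIH, did not pass on its chosen probe set, with 9.44, 8.59 and 9.31 on the KO-labelled arrays against 8.38, 7.53 and 8.52 on the WT-labelled arrays. Both replicate 3 arrays lay low (0.97, SE 0.329, limma adjusted p = 0.055). Its brighter probe set did pass, at 1.04 (adjusted p = 0.00073 over probe sets). Gtf2h5, the smallest TFIIH subunit, gave 0.00 on a dim probe set and −0.22 on a bright one, neither passing.

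**Figure D3:**
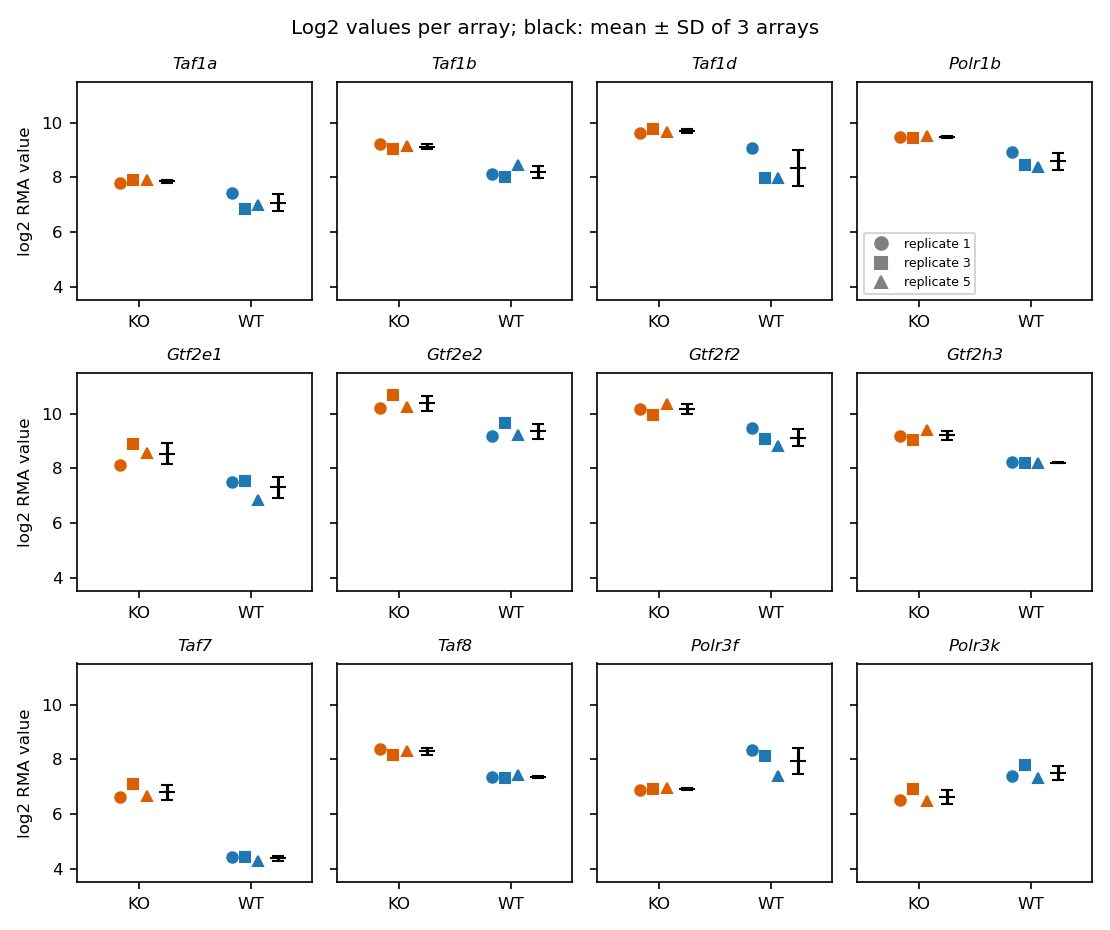
Log2 RMA value on each array for 12 members, KO-labelled arrays left and WT-labelled arrays right, with the mean as a line and bars of 1 SD (n = 3 each). Some of the 12 were picked after their values were seen. The groups do not overlap in any of the 12, while they overlap in 25 of the 63 members. Over all genes 28.1% did not overlap in the KO-labelled direction and 23.4% in the WT-labelled direction. Polr3f and Polr3k are those of the 12 with the KO-labelled values below.

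Of the Pol III factors, 2 of 5 TFIIIC subunits were higher, beside 22.6% of all genes. Gtf3c3, which helps hold TFIIIB, was 7.79, 7.90 and 7.66 on the KO-labelled arrays against 6.88, 7.04 and 6.69 on the WT-labelled arrays, well apart (0.91, SE 0.115, limma adjusted p = 0.0011). Gtf3c6 was higher by 0.61 (SE 0.121, limma adjusted p = 0.0074), but its brighter probe set gave −0.09 and did not pass. The DNA-binding subunit Gtf3c1, with Gtf3c4 and Gtf3c5, lay between −0.08 and 0.07. Gtf3a, which is TFIIIA, gave −0.31 (limma adjusted p = 0.13) with overlapping values.

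The TFII-I family, DNA-binding factors named with the general factors though not part of the core machinery, had 1 call among 3. Gtf2i did not pass on its chosen probe set (0.59, SE 0.277, limma adjusted p = 0.14), while each of its other 3 probe sets was higher, by 0.38 to 0.41. Gtf2ird1 was higher by 0.39 (limma adjusted p = 0.028), but its brighter probe set gave −0.11, and it passed only without KO-labelled array 3 or WT-labelled array 5 (adjusted p 0.06 to 0.09 without each other array). Gtf2ird2 gave −0.19 (limma adjusted p = 0.12). The TFIIA precursor Gtf2a1, its germ cell form Gtf2a1l and Gtf2b, which is TFIIB, gave 0.17, 0.01 and −0.13, and none passed. Gtf2a1l and Taf9b stayed near the nonspecific level on all 6 arrays.

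Probe sets of 1 gene did not always move together. Of the 33 called members 19 had 1 probe set and 14 had several. In 9 of those 14 all probe sets had 1 sign, and in 5 at least 1 had the opposite sign. In 7 of the 14, 2 or more probe sets passed in the same direction, and 0 members had probe sets called both ways.

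**Figure D4:**
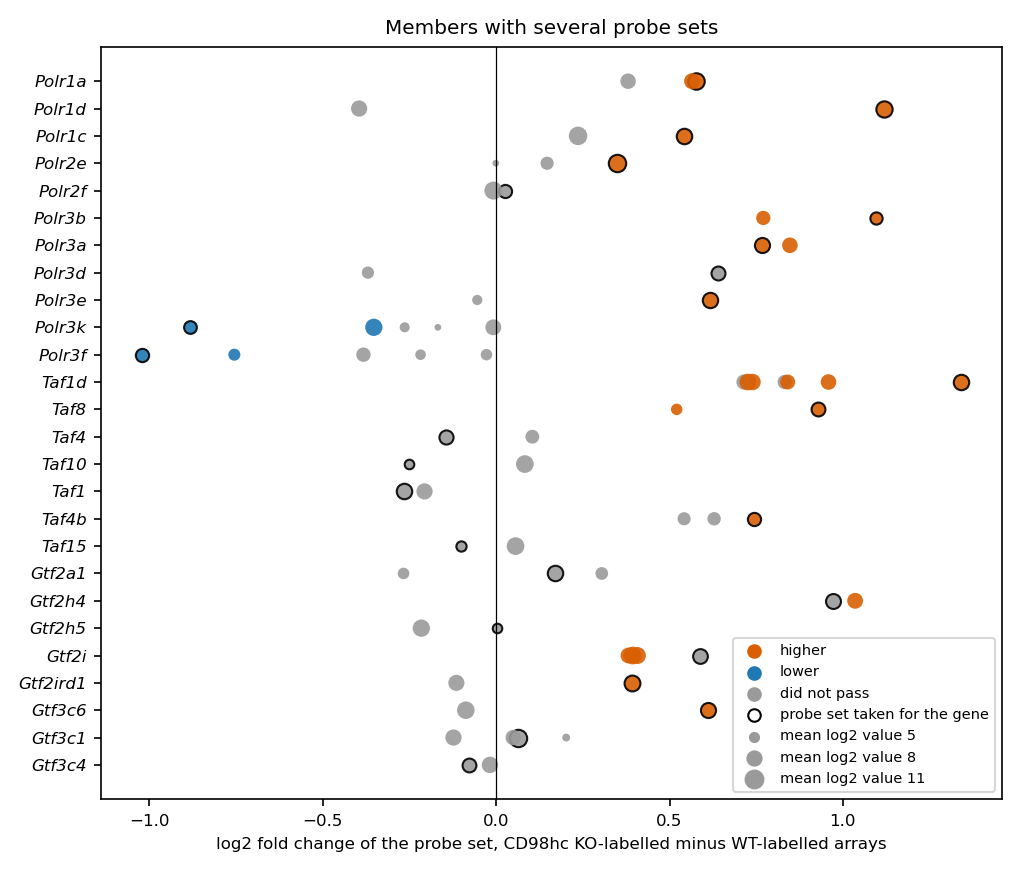
Log2 difference, KO-labelled minus WT-labelled arrays (n = 3 each), of every probe set of the 26 members with several, coloured by whether it passed, sized by its mean log2 value and outlined where it was taken for the gene. The 7 probe sets of Taf1d all lie right of 0 and the 5 each of Polr3f and Polr3k all lie left of it.

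Paralogues, and the partner subunits Polr1c and Polr1d, were compared within each array, as the log2 value of one minus that of the other. Such a difference shows unequal change and not which gene is more abundant. Of 8 pairs, 4 did not overlap between labels, each at an exact two-sided permutation p = 0.1, the smallest that 3 against 3 arrays allow, and 0.2 after adjustment over the 8 pairs. Taf4b minus Taf4 was 0.01, −0.46 and −0.11 on the KO-labelled arrays against −0.86, −1.03 and −1.32 on the WT-labelled arrays, a shift of 0.89. The Taf4 probe set used gave −0.14 and its other one 0.10, neither passing. Gtf2ird2 minus Gtf2i shifted by −0.78, with a Gtf2i probe set that gave 0.59 and did not pass. The other 3 probe sets of Gtf2i gave smaller differences, 0.38 to 0.41. The other pairs without overlap, Taf7l with Taf7 (−2.27) and Taf9b with Taf9 (0.25), set a gene against one near the nonspecific level on all 6 arrays, so their shifts hold only the changes of Taf7 and Taf9 given above and say nothing of the paralogues. The pairs of Taf5l with Taf5, Polr1c with Polr1d, Gtf2a1l with Gtf2a1 and Gtf2ird1 with Gtf2i overlapped, with exact permutation p-values of 0.2 to 0.7. No pair can reach a p under 0.05 in this design.

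Proteins that work with the members but have other symbols were counted from lists of partner genes. Of 90 measured partners, 44 were higher and 16 lower, with a median of 0.41, beside 22.6% higher and 19.2% lower over all genes. All 5 measured Pol I partners were higher: the initiation factors Rrn3 (0.97) and Ubtf (0.50), the terminator Ttf1 (0.41), and Twistnb (0.85) and Znrd1 (1.09), which encode further Pol I subunits. Of 8 Pol III partners 3 were higher and 0 lower: Snapc3 (1.25), Snapc4 (0.65) and Brf2 (0.93), which serve the Pol III promoters upstream of small nuclear RNA genes. Of 5 other TFIIH subunits 4 were higher, with Cdk7, its kinase, at 1.17. Mediator had 9 of 32 subunits higher (28.1%) and 10 lower (31.2%), from Med13l at 1.29 to Cdk19 at −1.996. Of 13 SAGA partners 5 were higher and 3 lower. Mitochondrial transcription, also counted among the 90, had 4 of 5 genes higher and 1 lower. Elongation factors were mostly higher, 14 of 21 with 2 lower, led by Tcea3 at 2.10. The TBP relative Tbpl1 did not pass, at 0.17.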

How the data were processed

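RNA of the cells that the study names CD98hc KO and WT fibroblasts (3 arrays each, grouped by title and genotype label) was amplified. It was hybridised to Affymetrix mouse arrays. The deposited values are log2 per probe set, made by the authors with RMA, which corrects background, normalises between arrays and summarises probes. Array intensities were not used here, so no limit of detection was set, and precision depends on how many arrays there are.

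Members were probe sets whose single platform symbol matched the rule, and 9 with several symbols were left out. All 63 members matched a RefSeq gene (GRCm38.p6) by gene ID. Where a gene had several probe sets, the one that varied most over the 6 arrays (largest SD) was taken. KO-labelled minus WT-labelled differences were tested with limma 3.58.1 in R 4.3.3 (lmFit, eBayes), with Benjamini-Hochberg adjustment over 17097 genes (or over 28898 probe sets where so stated) and a threshold of 0.05. The authors' model has the scan batch as covariate. No label or method gives it per array, and the fit here had no covariate. The script was checked on data with known differences. Figures were drawn with matplotlib 3.10.9 (Python 3.11.15).

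Genes were named by rule: members past 2-fold, the 3 largest differences each way in each group, the compared pairs, and members with probe sets called both ways. Others, such as Taf8, Taf1a, Gtf2h3, Gtf2h4, Gtf3c3 and Polr3gl, were named after their values were seen, as were the partner genes given with values and the 5 promoters printed. The members and lists were chosen with earlier results of these data known. The pairs of Polr3g with Polr3gl and of Taf6l with Taf6 were not analysed here, nor were Tbp and the other listed partners that were not measured. Alternatives were the replicate number as a block, the replicate 3 arrays as covariate or left out, and another probe set per gene or the mean of its probe sets. Further ones were other scalings, a filter on dim genes, eBayes with a trend, a 2-fold limit, and each array left out in turn.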

Additional observations from a re-analysis of the deposited data

How the results depend on the processing

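Of 381 values of the genes named by rule, not of all 63 members, under alternatives other than a left-out array, 341 kept their call and direction, 30 no longer passed, 9 newly passed and 1 reversed: Gtf2ird1, at −0.11 with the brightest probe set per gene. Gtf3c6, outside that rule, also turned negative there, at −0.09. With a 2-fold limit 7 members were higher and 1 lower (Pol I 1 higher, Pol II 0 higher, Pol III 1 higher and 1 lower, TAFs 2 higher and 0 lower, GTFs 3 higher). With the 4 arrays of replicates 1 and 5, 22 members were higher and 1 was lower, with 1 Pol III subunit lower, 3 TAFs higher and 0 TAFs lower. The brightest probe set left 1 Pol III subunit lower, arrays centred on their median gave 2 GTFs lower, and quantile normalisation 1 TAF lower. With arrays centred on their median 24 members were higher and 6 lower, against 19.4% and 22% of all genes. With the mean of each gene's probe sets 25 were higher and 4 lower, against 22.1% and 19% of all genes. Counted as probe sets and not as genes, 4 were lower for Pol III, 12 higher for TAFs and 11 higher for GTFs. Over all probe sets 20.1% were higher and 19.4% lower. Taf1d held 5 of those 12, and Gtf2i held 3 of those 11. Centring on the array median moved the median difference of all genes to −0.06, against 0.02. With 1 array left out, members higher ran from 23 to 29 and lower from 2 to 4 (19.1% to 21.3% and 16.7% to 18.1% of all genes), Pol III subunits higher from 2 to 4, TAFs lower from 0 to 2 and GTFs lower from 0 to 1. The calls lost were those of Polr3a, Taf4b, Taf11, Taf9, Gtf2ird1, Polr3gl, Polr2e and Polr2j, in fits with 1 array fewer. For the other settings the cause was not tested. Deviations of same-numbered arrays correlated at 0.0374, 0.58 and 0.148 for replicates 1, 3 and 5, so the numbers were not taken to pair the samples. With the replicate number as a block 33 members were higher and 5 lower, including 1 GTF lower, against 25% and 21.1% of all genes. Polr2j was lost, and Gtf2h4, Polr1e, Polr3d (adjusted p = 0.012 in limma), Taf5 (0.044), Taf13 and Gtf3a (0.019) newly passed.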
